A study of Mus musculus with 9 samples.

Results

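The Gata3 locus was examined as 67 of the 115727 peaks of open chromatin listed for mouse naive CD4+ T cells. The members are the 12 peaks that carry the Gata3 symbol and the 55 intergenic peaks, which carry no gene symbol, within 300 kb of the Gata3 transcript. Accessibility was profiled by ATAC-seq, where a transposase cuts open DNA and leaves sequencing adapters behind, in 9 libraries of 50000 cells each, sequenced as 75-bp read pairs. The groups, with 3 libraries each, were WT, Stat6_KO (Stat6 knockout) and Il21e_KO mice, all C57BL/6 and all untreated. The last allele is named both Il21e KO and IL21KO in the labels, which do not describe the DNA it lacks, nor whether the replicates of a group are separate animals. The p-values therefore measure the spread between these libraries, which may be technical.

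GATA3 is a zinc finger transcription factor that T cells need from their early development in the thymus, that CD4+ T cells need for their lineage choice, and that at a high level directs helper cells into the Th2 fate. In the textbook pathway, interleukin-4 binds its receptor, JAK kinases phosphorylate STAT6, and STAT6 raises Gata3 transcription. Naive cells already express Gata3 at a low level before they meet antigen. A regulatory element far 3′ of the gene is known to act as a T cell enhancer of Gata3.

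Gata3 lies on the minus strand of chromosome 2 (transcript NM_008091, 9778705 to 9800228 in the mm9 build, 21.5 kb), so lower coordinates are downstream. Distances below run from the transcription start to the centre of a peak. The 67 members were 2 promoter peaks, 9 intron peaks, 1 exon peak, 41 intergenic peaks downstream of the gene and 14 intergenic peaks upstream. The same window held 30 peaks of 7 other genes, 4930412O13Rik, 9230102O04Rik, Taf3, Atp5c1, Kin, Itih2 and Itih5. Of the 41 downstream intergenic members, 41 had Gata3 as the nearest listed transcription start, against 0 of the 14 upstream ones. With reads too few for a test in 46 members, 21 passed the filter on low values: both promoter peaks, 3 intron peaks, 15 downstream and 1 upstream intergenic peak. None of the 46 others had more than 12 reads in any library.

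The sequence just before the Gata3 start is shown because 1 of the 2 promoter peaks spans that start. It is RefSeq's, on the minus strand of the GRCm38.p6 build (chr2:9878601-9878850), a later build than that of the peak table, and the peak coordinates were not carried over to it. The capitals mark the 1 match to an ETS core motif.
Gata3 promoter: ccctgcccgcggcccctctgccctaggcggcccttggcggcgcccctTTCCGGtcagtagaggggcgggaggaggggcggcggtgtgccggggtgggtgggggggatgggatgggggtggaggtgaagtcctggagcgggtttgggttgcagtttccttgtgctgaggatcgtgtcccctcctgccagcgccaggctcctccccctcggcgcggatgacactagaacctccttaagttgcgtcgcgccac
The 300-base window searched, from 250 bases before the start to 50 after it, was 67.3% G and C against a median of 52.7% over 32851 promoters, and held 22 CpG pairs. Both strands were searched for 8 motifs. The ETS core CCGGAA occurred 1 time, on the strand opposite to the one printed and 203 bases before the start, and 14.9% of all promoters hold it. The STAT motif TTCNNNGAA (in 8.30% of promoters), the STAT6-type motif with 1 more base between the same half-sites (6.95%), the GATA motifs AGATAA (11.2%) and TGATAA (9.05%), the RBPJ motif TGGGAA (25.6%), the RUNX motif TGTGGT (16.8%) and the TCF motif CTTTGAA (5.14%) had no match in this window.

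Values are CPM, the reads in a peak scaled to 1000000 reads in all listed peaks of that library. The libraries held 1049460 to 1802405 reads in peaks, so that 1 read was worth 0.555 to 0.953 CPM. The library Il21e_KO 1 stood apart: it was the shallowest, it had no read in 23.5% of all peaks, and peaks at transcription starts (TSS) held 42.7% of its reads against 31.6% to 36.4% in the other 8. It had no read in 20 of the 67 members (29.9%), none of them a tested one, against 2 to 6 members in each of the other libraries. Some differences between groups are given also without it. At the targeted Stat6 gene, the exon 12 peak (chromosome 10, 127091973 to 127092691) held 2.84, 1.77 and 1.83 CPM in Stat6_KO and 4.76 to 12.3 CPM in the 6 other libraries, so the groups did not overlap. In reads these were 5, 3 and 3 in Stat6_KO and 5 to 19 in the others, with 5 in Il21e_KO 1. Stat6_KO and WT groups did not overlap at 13.2% of all tested peaks. At the exon 16 peak of the gene the order was reversed, at 15.3 to 23.3 CPM in Stat6_KO against 1.91 to 10.96. The 6 Il21 peaks never held more than 5 reads in a library, too few to check the Il21e_KO label. Of 6 marker genes of naive CD4+ T cells, 6 had a TSS peak, at 19.7 to 26.4 CPM per kb over the libraries, against 5.66 to 14.03 for 5 B cell genes and 7.99 to 18.5 for 2 of 3 NK cell genes. The Cd4 TSS peaks stood at 11.7 CPM per kb in WT. Of the CD8 T cell pair, Cd8a had no TSS peak and Cd8b1 had one at 24.9 to 33.6 CPM per kb over the libraries, above the CD4+ list in WT. Of the 5 myeloid markers 3 had a TSS peak, at 18.6 to 25.4 CPM per kb, most of it at Cd14, while Lyz2 had no peak and Spi1 held 0.927 CPM in WT. The part of other cell types in the results was not tested.

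Within the 300 kb window most of the open chromatin of the locus lay outside the gene. In WT the 55 intergenic members held 80.2% of the summed CPM of the locus, the 10 exon and intron peaks 12.2% and the 2 promoter peaks 7.56%. With a window of 100 kb the intergenic members summed to 64.9 CPM in WT. The 12 peaks that carry the Gata3 symbol summed to 87.5 CPM, so the share depends on the window. Between the end of the gene and the first tested downstream peak stretched 55.0 kb. Tested downstream peaks with neighbouring centres at most 10 kb apart formed 3 runs. The first, 6 peaks centred between 184.6 and 201.3 kb downstream within 17.3 kb of DNA, summed to 119 ± 7.7 CPM in WT (SD, n = 3), which was 37.9% of all downstream signal. The pair at 282.8 and 284.4 kb downstream summed to 52.2 ± 6.9 CPM in WT (16.6%). The first run also held the weakest tested peak of the locus in WT, 184.6 kb downstream, with 5.51 CPM. The peak 128.6 kb downstream, in none of the runs, held 22.2 CPM in WT. The third, 313.9 and 314.8 kb downstream, held 4.46%. The spacing that defines a run was chosen after the values had been seen.

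**Figure D1:**
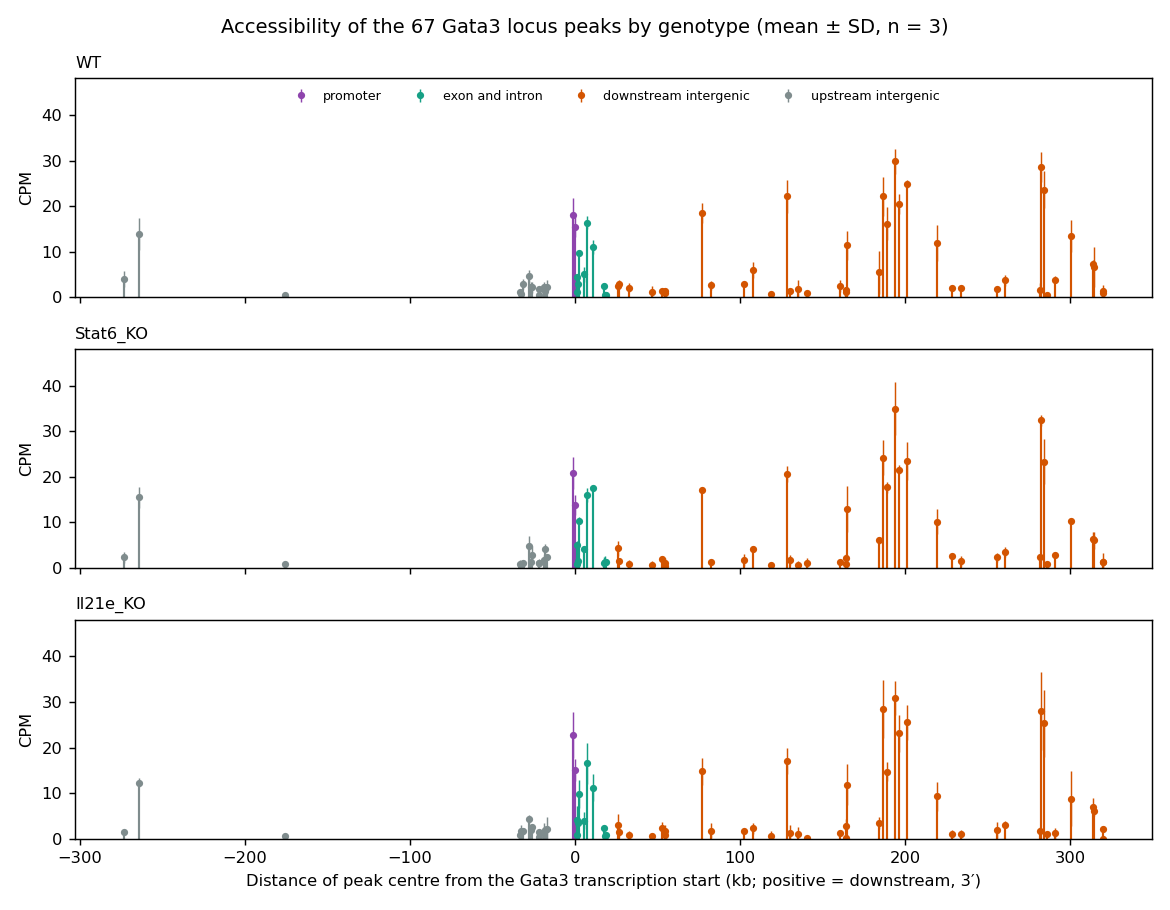
Mean CPM of each of the 67 peaks (vertical axis; lines show SD, n = 3) against the distance of its centre from the Gata3 start in kb (horizontal axis, downstream positive), in 1 panel per genotype, coloured by class. Groups of distal peaks stand at 184.6 to 201.3 kb and at 282.8 and 284.4 kb downstream in all 3 panels, and the 46 untested peaks form the low background.

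Compared with other genes, Gata3 had many peaks. Its 12 symbol-bearing peaks were more than those of 91.8% of 16126 genes, whose median was 2. Its 55 intergenic peaks within 300 kb exceeded the number at 98.1% of 16124 genes, with a median of 17, and their summed 355 CPM in WT exceeded that of 93.6% of them. These ranks describe the locus and carry no test, since windows of neighbouring genes share peaks. The window counts take only peaks without a gene symbol, so genes with many close neighbours can score lower.

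Per length, the highest WT level was not at the promoter. The peak 201.3 kb downstream (9598521 to 9599282) held 32.7 ± 1.3 CPM per kb (SD, n = 3), above 99.3% of 41627 intergenic peaks. The promoter peak at the start came next, with 27.9 ± 3.9 CPM per kb, above 84.95% of 14608 TSS peaks. The other promoter peak, at 21.7 ± 4.4 CPM per kb, stood above 51.6% of them. These shares also count peaks too low for a test: 16199 of the intergenic and 11905 of the TSS peaks passed the filter. The intergenic and TSS shares are therefore not on a like footing. The lowest of the 21 tested members lay 314.8 kb downstream with 10.8 ± 7.0 CPM per kb. In this order the ranges of the 3 WT libraries overlapped in 20 of 20 pairs of neighbours, so no neighbouring ranks differed beyond their spread.

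The question put to the locus was whether accessibility at Gata3 differs between the genotypes. No member passed the test: limma-trend on log2(CPM + 1), with Benjamini-Hochberg adjustment over all 48287 peaks tested and a false discovery rate of 0.05, called 0 of 21 members in Stat6_KO against WT, in Il21e_KO against WT and in Stat6_KO against Il21e_KO. Over all peaks it called 0.0104%, 0% and 0.0104% in these comparisons. At an unadjusted p under 0.05 stood 1, 0 and 1 of the 21 members, against 3.29%, 3.52% and 5.68% of all tested peaks. With edgeR's quasi-likelihood test on recovered reads the calls among the members were again 0, 0 and 0, and with DESeq2 0, 0 and 0. The median log2 fold change of the 21 members was 0.08, −0.02 and 0.12, beside −0.0046, −0.03 and 0.04 over all tested peaks. Of the 21, 16 were intergenic. The medians were 0.023, −0.055 and 0.089 over all tested intergenic peaks, and −0.081, 0.033 and −0.12 over all tested TSS peaks. Without Il21e_KO 1 the member medians in Il21e_KO against WT and between the knockouts became 0.0062 and 0.046. Beside them stood 0.0013 and −0.0060 over all tested peaks. Without Il21e_KO 1 the calls were still 0 of 21 in the 3 comparisons, beside 0.126%, 0.00414% and 0.0352% of all tested peaks, and 1, 0 and 1 of 21 stood at an unadjusted p under 0.05, beside 9.21%, 6.9% and 3.89%. Both knockouts were set against the same 3 WT libraries, so their differences from WT share that error. In such bulk samples, fewer cells with an open site and less opening per cell cannot be told apart.

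The 95% interval of the difference on the log2(CPM + 1) scale, which understates the change of low peaks, lay between −1 and 1 for 18 of 21 members in Stat6_KO against WT, for 19 of 21 in Il21e_KO against WT and for 18 of 21 between the knockouts. The peaks 300.4 and 184.6 kb downstream fell outside in each comparison, and the intron 4 peak in both comparisons with Stat6_KO. With a pseudocount of 0.25 the counts were 18, 18 and 18, as the peak 219.6 kb downstream also fell outside in Il21e_KO against WT. Without Il21e_KO 1, which had 2 reads at the peak 300.4 kb downstream, that peak lay inside in all 3 comparisons, and the counts were 19, 21 and 20 of 21. The peak 184.6 kb downstream was then outside in both comparisons with Stat6_KO, and the intron 4 peak only in Stat6_KO against WT. The median standard error (SE) of a member's log2 fold change was 0.22, against 0.24 over all tested peaks.

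**Figure D2:**
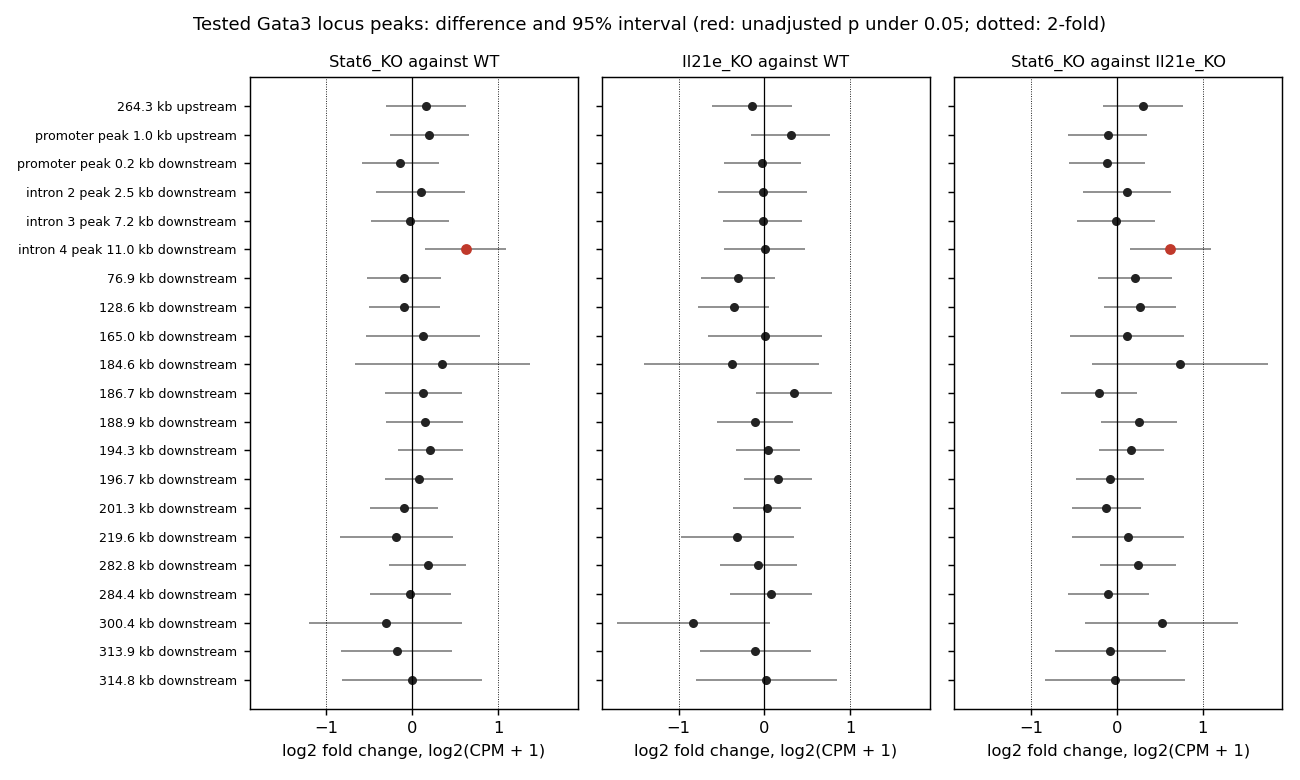
Log2 fold change on the log2(CPM + 1) scale (horizontal axis) with its 95% interval for the 21 tested members, ordered along the locus, in the 3 comparisons of genotypes. Red points, at an unadjusted p under 0.05, mark only the intron 4 peak, 0.62 in both comparisons with Stat6_KO; no point passed the adjusted threshold.

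At the promoter the 3 genotypes overlapped. The peak across the start (9799730 to 9800281) held 17.7, 14.8 and 13.5 CPM in the WT libraries, 15.9, 14.1 and 11.6 in Stat6_KO, and 14.3, 13.2 and 17.8 in Il21e_KO. The groups overlapped throughout, with log2 fold changes of −0.14 ± 0.21 (SE) for Stat6_KO and −0.03 ± 0.21 for Il21e_KO against WT. Its 95% interval for Stat6_KO ran from −0.58 to 0.31. The second promoter peak, 1.0 kb upstream (9800796 to 9801628), held 22.0, 14.8 and 17.4 CPM in WT, 18.2, 24.7 and 19.6 in Stat6_KO, and 23.8, 27.1 and 17.2 in Il21e_KO. Both knockouts had the higher mean here, by 0.20 ± 0.22 and 0.31 ± 0.22 on the log2 scale, yet each overlapped WT.

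Inside the gene the largest difference was at the intron 4 peak in Stat6_KO, and it did not pass the threshold. This peak (9788885 to 9789601, 10.985 kb downstream of the start) held 17.6, 17.1 and 17.7 CPM in the Stat6_KO libraries, 12.2, 9.34 and 11.6 in WT, and 8.58, 10.7 and 14.4 in Il21e_KO. All 3 Stat6_KO values lay above the 6 others, which overlapped each other. In reads these were 29 to 31 per Stat6_KO library, 12 to 20 per WT library and 9 to 26 per Il21e_KO library. The log2 fold change against WT was 0.62 ± 0.22 (SE; 95% interval 0.15 to 1.09; limma-trend unadjusted p = 0.0126, adjusted p = 1.00). Against Il21e_KO it was 0.62 ± 0.22 (limma-trend unadjusted p = 0.0128, adjusted p = 0.78), and between Il21e_KO and WT it was 0.00 ± 0.22. Without Il21e_KO 1 the adjusted p of Stat6_KO against WT was 0.25 by limma-trend, and 0.46 ± 0.22 was the log2 fold change against Il21e_KO. Stat6_KO and WT groups did not overlap at 3 of 21 members, 2 higher and 1 lower, and at 13.2% of all tested peaks.

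The other tested intron peaks overlapped between the genotypes. The intron 3 peak (9792682 to 9793396, 7.2 kb downstream) held 14.7, 17.1 and 17.4 CPM in WT, 15.9, 17.7 and 14.7 in Stat6_KO, and 21.0, 11.97 and 16.6 in Il21e_KO. Its log2 fold changes were −0.03 ± 0.22 and −0.02 ± 0.22 against WT. The intron 2 peak (9797487 to 9798033, 2.5 kb downstream) held 9.18, 10.1 and 9.67 CPM in WT, 9.66, 10.6 and 11.01 in Stat6_KO, and 13.3, 8.19 and 7.77 in Il21e_KO. In both peaks Il21e_KO 1 was the highest of the 9 libraries, and the Il21e_KO group spanned the other groups. None of the 6 other intron peaks and the exon peak had enough reads for a test.

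**Figure D3:**
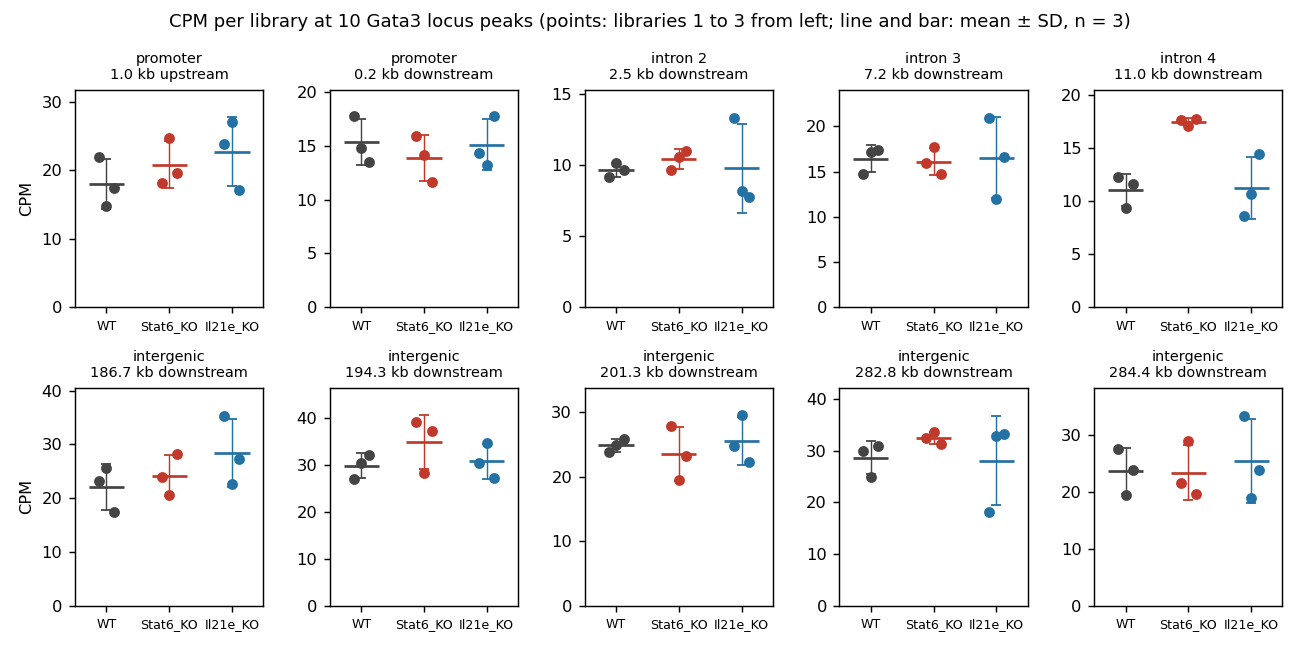
CPM (vertical axis, from 0) of each library at the 2 promoter peaks, the 3 tested intron peaks and the 5 strongest distal peaks, with libraries 1 to 3 of each genotype from left to right and the mean ± SD as line and bar. At the intron 4 peak the 3 Stat6_KO points lie at 17.1 to 17.7, above the 6 others, while most other panels overlap.

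The 5 strongest distal peaks by mean CPM over the 9 libraries overlapped between WT and each knockout, apart from the one 282.8 kb downstream in Stat6_KO. The peak 194.3 kb downstream (9605332 to 9606565) held 26.9, 30.4 and 32.2 CPM in WT, 39.2, 28.3 and 37.3 in Stat6_KO, and 30.5, 34.7 and 27.2 in Il21e_KO. Its log2 fold changes were 0.21 ± 0.18 and 0.04 ± 0.18 against WT. The peak with the highest level per length, 201.3 kb downstream, held 23.9, 24.9 and 25.8 CPM in WT, a narrow range, against 19.4 to 27.8 in Stat6_KO and 22.2 to 29.6 in Il21e_KO. At 186.7 kb downstream (9613070 to 9614027) the values were 23.3, 25.7 and 17.4 CPM in WT, 23.9, 20.6 and 28.1 in Stat6_KO, and 35.3, 22.7 and 27.2 in Il21e_KO, where Il21e_KO 1 was the highest. The log2 fold change of Il21e_KO against WT was 0.34 ± 0.21 here, the highest of the 21 members in that comparison, and 0.18 ± 0.19 without Il21e_KO 1. Without that library the highest was at the peak 165.0 kb downstream, 0.35 ± 0.25, against 0.0081 ± 0.31 with all libraries. The run of 6 peaks from 184.6 to 201.3 kb together summed to 128 ± 15.02 CPM in Stat6_KO and 126 ± 6.6 in Il21e_KO, overlapping WT.

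Farther out, the 2 peaks of the second run overlapped between WT and Il21e_KO. The peak 282.8 kb downstream (9516919 to 9518022) held 30.0, 24.9 and 31.0 CPM in WT and 32.4, 33.6 and 31.2 in Stat6_KO. The Stat6_KO values lay just above the WT range, with a log2 fold change of 0.18 ± 0.21. In Il21e_KO it held 18.1, 32.8 and 33.3 CPM, the low value being Il21e_KO 1. Its partner 284.4 kb downstream (9515342 to 9516281) held 27.5, 19.5 and 23.9 CPM in WT, 21.6, 28.9 and 19.6 in Stat6_KO, and 33.4, 18.9 and 23.9 in Il21e_KO. Here Il21e_KO 1 was the highest library, so within this pair the same library stood at opposite ends. The pair summed to 55.7 ± 6.0 CPM in Stat6_KO and 53.4 ± 3.2 in Il21e_KO.

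Several distal peaks had a lower mean in Il21e_KO than in WT, none past the threshold. Of the 16 tested intergenic members 9 had a log2 fold change below 0, beside 9525 of all 16199 tested intergenic peaks. Without Il21e_KO 1 it was 8 of the 16. The largest difference was at 300.4 kb downstream (9499420 to 9500239), with 11.01, 11.7 and 17.4 CPM in WT, 10.2, 10.6 and 10.4 in Stat6_KO, and 1.91, 13.2 and 11.1 in Il21e_KO. All 3 Stat6_KO values lay just below the WT range, at a log2 fold change of −0.31 ± 0.42. For Il21e_KO against WT the log2 fold change was −0.83 ± 0.42 (limma-trend unadjusted p = 0.0661), and −0.10 ± 0.24 without Il21e_KO 1, whose value rested on 2 reads. At 128.6 kb downstream (9671228 to 9672077) WT held 26.3, 20.2 and 19.99 CPM and Il21e_KO 14.3, 17.01 and 19.97, the 1 member whose groups did not overlap in this comparison (7.28% of all tested peaks). Its log2 fold change was −0.36 ± 0.20, and −0.24 ± 0.19 without Il21e_KO 1. The first tested peak after the gene, 76.9 kb downstream (9722980 to 9723704), held 18.4, 16.3 and 20.6 CPM in WT, 17.05, 17.08 and 17.13 in Stat6_KO, and 11.4, 16.4 and 16.6 in Il21e_KO. At 184.6 kb downstream (9615451 to 9615812), a narrow peak of low reads, WT held 2.45, 3.11 and 10.96 CPM, Stat6_KO 6.25, 5.30 and 6.73, and Il21e_KO 1.91, 4.41 and 3.88. Its log2 fold change between the knockouts, 0.73 ± 0.48, was the largest of the 21 in that comparison, and so was its SE; without Il21e_KO 1 it was 0.46 ± 0.42. Between the knockouts the groups did not overlap at 3 of 21 members, the intron 4 peak and those 76.9 and 184.6 kb downstream, all higher in Stat6_KO, against 11% of all tested peaks in either direction and 6.45% higher.

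The other tested distal peaks overlapped between WT and both knockouts. The 1 tested upstream peak, 264.3 kb from the start (10064215 to 10064826), held 12.2, 17.9 and 11.6 CPM in WT, 16.5, 12.95 and 17.1 in Stat6_KO, and 13.3, 11.3 and 12.2 in Il21e_KO. The 196.7 kb downstream peak, part of the first run, ranged from 18.1 to 22.6 CPM in WT, from 20.6 to 22.6 in Stat6_KO and from 19.5 to 27.6 in Il21e_KO. The 219.6 kb downstream peak, alone between the first and second runs, held 11.9 ± 4.0 CPM in WT, 10.2 ± 2.8 in Stat6_KO and 9.36 ± 3.2 in Il21e_KO. The 313.9 kb downstream peak held 7.37 ± 0.89, 6.45 ± 1.4 and 6.93 ± 2.0 CPM in the same order.

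Summed by class, the knockouts and WT overlapped at the promoter and in both intergenic classes. The promoter peaks summed to 33.4 ± 5.5 CPM in WT, 34.7 ± 3.9 in Stat6_KO and 37.8 ± 2.7 in Il21e_KO. The exon and intron peaks summed to 53.2, 52.9 and 56.1 CPM in WT and to 57.4, 60.1 and 61.8 in Stat6_KO, where all 3 libraries lay above WT, and to 62.9, 44.7 and 53.8 in Il21e_KO. The class means were 54.1 CPM in WT and 59.7 in Stat6_KO, and those of its intron 4 peak alone 11.1 and 17.5 CPM. The downstream intergenic peaks summed to 314 ± 28.6 CPM in WT, 314 ± 16.7 in Stat6_KO and 291 ± 36.0 in Il21e_KO, which became 312 CPM without Il21e_KO 1. The upstream intergenic peaks summed to 40.5 ± 2.9, 41.0 ± 4.2 and 34.6 ± 4.7 CPM in the same order. The whole locus held 442 ± 27.6 CPM in WT, 449.5 ± 16.6 in Stat6_KO and 417 ± 32.1 in Il21e_KO, or 436 without Il21e_KO 1. The 46 untested members held 52.4 CPM in Il21e_KO 1 and 81.3 to 107 CPM in the other 8 libraries. The part of the shallow depth and the high TSS share of that library in this was not tested. No test was run on these sums.

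**Figure D4:**
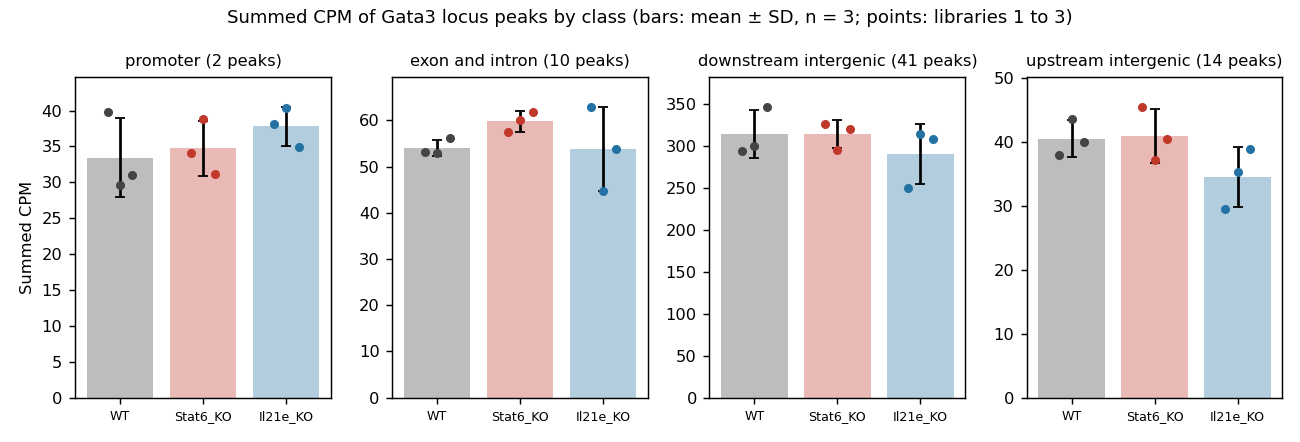
Summed CPM (vertical axis, from 0) of the members of each class in each genotype: bars are means, error bars SD (n = 3), points the libraries 1 to 3 from left to right. In the exon and intron panel the 3 Stat6_KO libraries lie at 57.4 to 61.8, above the WT libraries at 52.9 to 56.1; in the downstream panel the low Il21e_KO point is library 1.

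The untested members were described without the filter, in a fit of all 115727 peaks. It called 0 of 67 members in each comparison, beside 0.00518%, 0.000864% and 0.0138% of all peaks. At an unadjusted p under 0.05 it had 2, 4 and 3 of 67 members, against 6.33%, 6.15% and 7.94% of all peaks. These are peaks of few reads. With no read counted, up to 3 reads remain possible, worth 1.66 to 2.86 CPM by library, and untested members had WT means of 0.419 to 6.08 CPM.

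The genes that act on Gata3 were followed through their own peaks. The list of 19 upstream genes (the interleukin-4 and interleukin-2 receptor chains, JAK kinases, STAT and Notch factors and others) had 116 tested peaks in 18 genes, while Il4 itself had no peak. In each of the 3 comparisons 0 of the 116 peaks were called. The median log2 fold change was −0.0051 in Stat6_KO and 0.03 in Il21e_KO against WT, the latter −0.02 without Il21e_KO 1. The smallest p in Stat6_KO against WT belonged to the Stat6 gene: log2 fold changes of −1.59 ± 0.39 at the exon 12 peak and 1.11 ± 0.36 at the exon 16 peak (127094700 to 127095673). At exon 16 the Stat6_KO libraries held 23.3, 19.4 and 15.3 CPM against 1.91 to 10.96 in the 6 others. Both had an adjusted p of 1.00 by limma-trend; without Il21e_KO 1 both were called, at adjusted p = 0.0274 and 0.0217. The Stat6 promoter peak, at 70.7 ± 13.6 CPM in WT and 65.2 ± 2.9 in Stat6_KO, differed by −0.10 ± 0.14. In Il21e_KO against WT the smallest p were at a TSS peak of Stat5b, which encodes the STAT factor of interleukin-2 signalling (0.57 ± 0.23), and in an intron of Nfatc1, a calcium-activated factor (−1.11 ± 0.46). Without Il21e_KO 1 these were 0.44 ± 0.23 at Stat5b and −0.50 ± 0.33 at Nfatc1. The strongest promoter peaks of these genes differed by 0.06 ± 0.23 and −0.10 ± 0.17, and by −0.11 ± 0.20 and −0.22 ± 0.14 without it.

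The antagonists of GATA3 likewise had no called peak, 0 of 50 in each comparison, in 10 of 10 genes. Their median log2 fold change was −0.11 in Stat6_KO and −0.094 in Il21e_KO against WT, the latter −0.076 without Il21e_KO 1. Above 0 lay 26.0% and 38.0% of them, beside 49.2% and 45.2% of all tested peaks. Of the 11905 tested TSS peaks alone, 3921 lay above 0 in Stat6_KO and 6811 in Il21e_KO against WT. An intron 2 peak of Runx1, a runt-domain factor of T cells (chromosome 16, 92813626 to 92814174), held 10.3 ± 1.0 CPM in WT, 16.3 ± 1.9 in Stat6_KO and 15.5 ± 1.4 in Il21e_KO. Its log2 fold changes were 0.61 ± 0.20 and 0.54 ± 0.20 (limma-trend unadjusted p = 0.00776 and 0.0162, adjusted p = 1.00 in both). A second intron 2 peak of Runx1 had a log2 fold change of −0.50 ± 0.22 in Il21e_KO against WT. Without Il21e_KO 1 these 2 peaks were at 0.51 ± 0.22 and −0.37 ± 0.23 in that comparison. The Runx1 promoter peak with the most CPM differed by −0.07 ± 0.13 and −0.09 ± 0.13. The TSS peak of Zfpm1, which encodes the GATA cofactor FOG-1, held 17.2 ± 3.0 CPM in WT and 11.8 ± 2.1 in Stat6_KO, a log2 fold change of −0.50 ± 0.27. An intron peak of Pias1, an E3 SUMO ligase, was at −0.60 ± 0.20 in Stat6_KO against Il21e_KO, and its promoter at 0.00 ± 0.24; without Il21e_KO 1 they were at −0.51 ± 0.20 and 0.19 ± 0.21.

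Among targets and Th2 partners of GATA3 no peak passed the test. Of 15 genes 9 had a tested peak, 21 peaks in all, of which 0 were called in each comparison. The cytokine genes Il4, Il5, Il13 and Il24 had no peak, and Il10 and Il1rl1, which encodes the interleukin-33 receptor, had none that could be tested. Epas1, which encodes a hypoxia-inducible factor, had a strong intron 2 peak with 40.6 ± 1.4 CPM in WT, 32.5 ± 4.8 in Stat6_KO and 43.4 ± 8.8 in Il21e_KO. Its log2 fold change was −0.32 ± 0.18 in Stat6_KO against WT, and −0.05 ± 0.16 at its promoter. The exon 3 peak of Ptgdr2, which encodes the prostaglandin D2 receptor of Th2 cells, stood at 0.35 ± 0.23 in Stat6_KO and 0.59 ± 0.23 in Il21e_KO against WT, the latter 0.62 ± 0.23 without Il21e_KO 1. A peak in the 5′ untranslated exon of Zbtb7b, which encodes the CD4 lineage factor ThPOK, held 6.70 ± 0.91 CPM in WT and 2.98 ± 1.4 in Il21e_KO, a log2 fold change of −1.005 ± 0.379, while its promoter peak was at 0.00 ± 0.23. Without Il21e_KO 1 these were −1.01 ± 0.37 and −0.26 ± 0.18.

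Within the GATA family most of the summed CPM was at Gata3. Its 12 peaks summed to 87.5 ± 5.3 CPM in WT, 94.5 ± 3.9 in Stat6_KO and 91.6 ± 8.3 in Il21e_KO. Gata2, Gata4, Gata5 and Gata6 had 1 to 3 peaks each, none with more than 8 reads in a library. Gata1, the erythroid factor, had 1 peak, in a 5′ untranslated exon, with 15.4 ± 5.8 CPM in WT; the erythroid genes Klf1 and Hbb-b1 had no TSS peak. Per length the Gata1 peak held 19.0 CPM per kb in WT, and the 12 Gata3 peaks together 15.8. Of the 6 tested peaks of the family, 5 are the Gata3 promoter and intron peaks already counted above and 1 is the Gata1 peak. None of the 6 was called in any comparison.

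The genes beside Gata3 had 14 tested peaks, of which 0 were called in each comparison. Their median log2 fold change was 0.13 in Stat6_KO and −0.09 in Il21e_KO against WT, next to 0.08 and −0.02 for the Gata3 members. Without Il21e_KO 1 the second value became −0.0050 for the neighbours. The promoter peak of Taf3, which encodes a subunit of the TFIID initiation complex, had 37.2 ± 1.7 CPM in WT, 40.7 ± 2.2 in Stat6_KO and 45.9 ± 10.2 in Il21e_KO. An intron 16 peak of Itih2 held 5.48 ± 1.4 CPM in WT and 9.01 ± 1.9 in Stat6_KO (log2 fold change 0.64 ± 0.37). A peak in an exon of 4930412O13Rik, the transcript next to the Gata3 start on the upstream side, was at −0.88 ± 0.45 in Il21e_KO against WT, and at −0.36 ± 0.35 without Il21e_KO 1.

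The promoter peak with the most reads, 1.0 kb upstream, was set beside the strongest promoter peak of each of 11293 other genes over the 9 libraries. The highest correlations of log2(CPM + 1) were at Kif3a (Pearson r = 0.918), Nars (0.891), Ikzf2 (0.890), Fbxo27 (0.890) and Zfp248 (0.884), with a 95th percentile of 0.55 over all of them. With Gata3's own second promoter peak, the one across the start, r was −0.22. These are descriptions over 9 libraries that share depth and composition, and the top of 11293 values is high by selection.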

How the data were processed

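The authors deposited 1 table of 115727 peaks by 9 libraries on the mm9 build, with values in CPM. Per the submitters' processing notes Bowtie 1.3.0, MACS2 2.0 and HOMER were used; the role of each, and how peaks were merged, are not given in the sources used here. Each deposited CPM column sums to 1000000 over the listed peaks, so a library with more reads in some peaks has lower CPM in the rest. The headers of the gene columns are shifted against their contents, so the contents decided what a column holds. Dividing by the smallest step of a library gave whole reads within 0.01 for 100% of values. The intervals of log2 fold changes come from the limma-trend fit and, like its p-values, measure the spread between these libraries. The floors for peaks without a read cover counting error only.

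Peaks were kept with filterByExpr of edgeR 4.0.16 on the recovered reads (minimum count 10, minimum total 15), which left 48287 and set aside 67440. The filter asks for reads in enough libraries for 1 group of 3, so a peak high in 1 genotype alone could pass. Differences were tested in R 4.3.3 by limma-trend, version 3.58.1, with CPM taken as log2(CPM + 1) and all 9 libraries in 1 fit, adjusted over all tested peaks, at a false discovery rate of 0.05. Fold changes on this scale understate the change of low peaks. edgeR's quasi-likelihood test on the recovered counts, an alternative, called 6, 0 and 12 peaks over the whole table in the 3 comparisons, and DESeq2 1.42.0 called 6, 0 and 7. The other alternatives were pseudocounts of 0.25 and 5, no filter, TMM factors, cyclic loess, only the groups compared, the replicate number as a block, each library left out, and a window of 100 kb. The procedure was tested on simulated data.

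The members and gene lists were chosen with earlier results of these data known. Named by rule were all tested Gata3 peaks, and of the intergenic ones the 5 with the highest mean CPM and per direction the 3 of smallest p, and for each list any called peak or else the 2 with the smallest p, with the strongest promoter peak of the same gene. Listed genes absent under their symbol were matched by RefSeq synonym (Mina as Riox2, and Gpr44 as Ptgdr2, counted once).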

Additional observations from a re-analysis of the deposited data

How the results depend on the processing

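The count of Gata3 locus peaks called was 0 in all 3 comparisons under each alternative run, including 100 kb in place of 300 kb. Among the peaks of the gene lists, leaving out each library in turn gave 0 to 2 calls in Stat6_KO against WT and 0 to 1 in Stat6_KO against Il21e_KO. These calls came without Il21e_KO 1, at the Stat6 exon 12 and exon 16 peaks (log2 fold changes of −1.59 and 1.11 against WT) and at exon 16 against Il21e_KO (1.27, adjusted p = 0.0326 by limma-trend). Over the whole table, leaving out Il21e_KO 1 gave 61, 2 and 17 calls in the 3 comparisons in place of 5, 0 and 5. Fitting only the groups compared gave 38 calls in Stat6_KO against WT. Between the knockouts edgeR gave 12 calls, pseudocount 5 gave 8, cyclic loess 13 and no filter 16.

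Replicate numbers were not taken to pair the libraries. The deviations of same-numbered libraries of different groups correlated at −0.186 to 0.249, beside −0.302 to 0.242 for differently numbered ones. The highest value of all was at a same-numbered pair, WT 3 and Il21e_KO 3. With the replicate block the calls over the whole table were 4, 0 and 5, and 0 of 21 members in each comparison. With the 100 kb window the intergenic sums, over fewer peaks, were 64.9 CPM in WT, 58.4 in Stat6_KO and 51.9 in Il21e_KO. These lay below the sums of the 12 peaks with the Gata3 symbol, 87.5, 94.5 and 91.6 CPM.

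Some log2 fold changes of uncalled members took the other sign in a setting. With all libraries these were 0.52 at the 300.4 kb peak in Stat6_KO against Il21e_KO, −0.38 at the 184.6 kb peak in Il21e_KO against WT, and −0.18 to 0.25 at the others. Below, the start peak is the promoter peak across the start, and distances are downstream. With cyclic loess in Stat6_KO against WT, it was 0.034 at the 284.4 kb peak. With cyclic loess in Il21e_KO against WT, it was 0.031 at the 313.9 kb peak, −0.00209 at the 201.3 kb peak, 0.00155 at the intron 3 peak, 0.065 at the intron 2 peak and 0.013 at the start peak. With edgeR in Il21e_KO against WT, it was 0.043 at the 282.8 kb peak, 0.00401 at the intron 3 peak and 0.020 at the start peak. With DESeq2 in Il21e_KO against WT, it was 0.039 at the 282.8 kb peak, 0.038 at the intron 3 peak, 0.021 at the intron 2 peak and 0.027 at the start peak. With the pseudocount 0.25 in Il21e_KO against WT, it was −0.000221 at the intron 4 peak. With TMM factors in Il21e_KO against WT, it was 0.021 at the intron 3 peak, 0.018 at the intron 2 peak and 0.015 at the start peak. With cyclic loess in Stat6_KO against Il21e_KO, it was −0.00822 at the 219.6 kb peak and −0.023 at the intron 2 peak.

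Leaving out each library in turn in Stat6_KO against WT gave −0.18 to 0.091 at the 284.4 kb peak, −0.47 to 0.036 at the 219.6 kb peak, −0.22 to 0.033 at the 201.3 kb peak and −0.00499 to 0.15 at the 196.7 kb peak. It further gave −0.024 to 0.24 at the 186.7 kb peak, −0.16 to 0.033 at the 128.6 kb peak and −0.10 to 0.033 at the intron 3 peak. Leaving out each library in turn in Il21e_KO against WT gave −0.28 to 0.11 at the 313.9 kb peak, −0.13 to 0.26 at the 284.4 kb peak, −0.22 to 0.21 at the 282.8 kb peak and −0.080 to 0.12 at the 201.3 kb peak. It further gave −0.046 to 0.12 at the 194.3 kb peak, −0.72 to 0.17 at the 184.6 kb peak, −0.18 to 0.16 at the intron 4 peak and −0.20 to 0.18 at the intron 3 peak. It further gave −0.25 to 0.11 at the intron 2 peak, −0.14 to 0.077 at the start peak and −0.25 to 0.039 at the 264.3 kb upstream peak. Leaving out each library in turn in Stat6_KO against Il21e_KO gave −0.29 to 0.10 at the 313.9 kb peak, −0.20 to 0.94 at the 300.4 kb peak, −0.28 to 0.11 at the 284.4 kb peak and −0.028 to 0.39 at the 282.8 kb peak. It further gave −0.15 to 0.35 at the 219.6 kb peak, −0.24 to 0.00496 at the 201.3 kb peak, −0.19 to 0.050 at the 196.7 kb peak and −0.21 to 0.17 at the intron 3 peak. It further gave −0.00911 to 0.35 at the intron 2 peak, −0.21 to 0.00274 at the start peak and −0.29 to 0.027 at the upstream promoter peak. The causes were not tested. Depth left 46 of 67 members without a test.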
